A study of Mus musculus with 6 samples.

Results

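The 9 genes followed here encode signals that draw neutrophils and monocytes into tissue, or the receptor for such a signal, and were read through single-cell RNA libraries of mouse skin. They are Cxcl1, Cxcl2, Cxcl3, Cxcl5, Csf3, Il6, Ccl2, Ccl7 and Ccr2, and they were taken by symbol, 9 of the 32285 genes listed in every library, with 1 matching entry each. The mice were females of 17 to 18 weeks, given no treatment, and their strain is labelled C57/BL6 throughout. The wild-type mice carried no deletion. The others, labelled UP_Del, lacked an enhancer upstream of Il2ra, the gene of the IL-2 receptor alpha chain, and had either lost hair (alopecia) or kept it (no alopecia). Because the deletion is carried by both of the latter groups, alopecia against no alopecia compares mice of 1 labelled genotype, while each comparison with wild type holds the deletion as well. Whole skin without its hypodermis was digested for 2 hours at 37 degrees C and then for 10 min with trypsin, and live cells were sorted into a CD45-positive and a CD45-negative part. This gave 6 droplet libraries, 1 for each of 3 groups in each of 2 sorts. The labels used here do not say how many mice went into a library, so each group counts as 1 sample per sort and no p-value is given.

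CXCL1, CXCL2, CXCL3 and CXCL5 are chemokines that act on neutrophils through the receptor CXCR2. CSF3 (granulocyte colony-stimulating factor) drives neutrophil production in the marrow, and IL-6 is a cytokine of acute inflammation that signals through IL6RA and gp130. CCL2 and CCL7 call monocytes through CCR2, the receptor among the 9. In skin these ligands are induced in stroma, keratinocytes and resident leukocytes by IL-1, TNF and IL-17 through NF-kB and C/EBP factors, and their mRNAs are short-lived.

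Several of the genes are neighbours. In GENCODE vM21 (build GRCm38) all 9 are protein-coding genes on the plus strand. The CXC ligands lie on chromosome 5 in the order Cxcl5 (90759360 to 90761624), Cxcl3 (90786103 to 90789600), Cxcl1 (90891241 to 90893115) and Cxcl2 (90903871 to 90905938), a span of 146.6 kb. Il6 lies apart on the same chromosome (30013114 to 30019981). Ccl2 (82035571 to 82037453) and Ccl7 (82045712 to 82047525) share 12 kb of chromosome 11, which also holds Csf3 (98701263 to 98703629), and Ccr2 is on chromosome 9 (124101950 to 124113557). The upstream sequence of 4 members is shown because the cells that carry their mRNA differ widely, while the sequence just before the start is alike in 3 of them. It comes from RefSeq (build GRCm38.p6, plus strand), stops at the transcription start and is written 5′ to 3′. The windows are chr5:90890995-90891240 for Cxcl1, chr5:90903649-90903870 for Cxcl2, chr5:90785851-90786100 for Cxcl3 and chr5:30012864-30013113 for Il6. Capitals mark matches to 4 motifs, searched on both strands. These were GGGANNTTCC for the factor NF-kB, TGANTCA for AP-1 dimers of Fos and Jun, TTGNNCAA for the C/EBP family, and the TATA box as TATAAA.
Cxcl1: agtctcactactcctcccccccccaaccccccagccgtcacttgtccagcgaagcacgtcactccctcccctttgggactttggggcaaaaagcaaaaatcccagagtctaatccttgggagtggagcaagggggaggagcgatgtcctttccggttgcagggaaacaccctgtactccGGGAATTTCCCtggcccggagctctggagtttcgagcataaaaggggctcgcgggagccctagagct
Cxcl2: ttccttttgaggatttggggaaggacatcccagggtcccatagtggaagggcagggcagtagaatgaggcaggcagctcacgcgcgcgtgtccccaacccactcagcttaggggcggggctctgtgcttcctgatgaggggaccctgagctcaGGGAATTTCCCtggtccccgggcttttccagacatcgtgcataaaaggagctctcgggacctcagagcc
Cxcl3: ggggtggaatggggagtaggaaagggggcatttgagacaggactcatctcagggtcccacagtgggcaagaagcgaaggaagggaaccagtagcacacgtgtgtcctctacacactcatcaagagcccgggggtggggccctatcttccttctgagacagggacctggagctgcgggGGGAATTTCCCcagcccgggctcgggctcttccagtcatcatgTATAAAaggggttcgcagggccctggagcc
Il6: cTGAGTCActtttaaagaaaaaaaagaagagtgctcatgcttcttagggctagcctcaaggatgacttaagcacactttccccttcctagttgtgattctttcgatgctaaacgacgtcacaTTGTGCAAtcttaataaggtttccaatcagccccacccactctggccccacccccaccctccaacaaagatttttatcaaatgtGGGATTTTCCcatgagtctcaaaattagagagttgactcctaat
In Cxcl1, Cxcl2 and Cxcl3 the capitals beginning with GGGAA hold a pair of NF-kB matches that overlap, 1 on each strand, and the first base lies 67, 69 and 75 bases before the annotated start. In Il6 a single NF-kB match begins 44 bases before the start, a C/EBP match 128 and an AP-1 match 249 bases before it. Of 32851 promoters, each read over 250 upstream bases, 1.21% held the NF-kB motif, 6.75% AP-1, 5.65% C/EBP and 12.4% TATAAA. The windows of Cxcl1 and Cxcl2 shown here are shorter, at 246 and 222 bases. A match is a run of letters and shows no binding.

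After filtering, the CD45-positive libraries held 6313 (wild type), 3234 (no alopecia) and 8852 (alopecia) cells and the CD45-negative ones 3293, 14447 and 4817, with 19463779 to 97265229 UMIs (counted molecules) per library. Il2ra was at 238, 148 and 132 CPM (counts per 1000000 UMIs) in the CD45-positive libraries of the same order. Ptprc, which encodes CD45, lay between 655 and 788 CPM in the same libraries and between 0.206 and 0.909 CPM in the CD45-negative ones. The no-alopecia CD45-negative library stood apart: the cell filter removed 7.56% of its barcodes against 26.7% and 30.4% of the other CD45-negative ones, and it held the most cells. Comparisons of alopecia with wild type do not use it. The CD45-positive libraries also held stroma, which was 2.42%, 8.44% and 3.29% of their cells in wild type, no alopecia and alopecia. Any pair of libraries shared 24 to 228 barcodes, 0.719% to 2.57% of the smaller. Cells were clustered within each sort without the 9 genes. Each class name below means cells like the named type by their markers, and classes without a clear type are called by the genes that lead them. Intervals are 95% and exact (Poisson for levels, binomial for shares and ratios), and they cover counting error only. A value counts as higher or lower from 1.5-fold on, with at least 20 UMIs over the pair compared.

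The 9 genes fell into 3 kinds by the sort that held them (the plot of levels by library). Cxcl2, Cxcl3 and Ccr2 were CD45-positive genes. Cxcl2 stood at 306, 193 and 273 CPM in wild type, no alopecia and alopecia there, against 16.1, 17.6 and 9.52 CPM among CD45-negative cells. Ccr2 stood at 130, 126 and 159 CPM in CD45-positive cells and at 3, 0 and 0 UMIs in CD45-negative ones, where a count of 3 is the limit that 0 allows. Cxcl1, Csf3 and Il6 were mainly CD45-negative. Cxcl1 stood at 102, 82.8 and 49.0 CPM among CD45-negative cells and at 32.8, 16.5 and 11.9 CPM among CD45-positive ones. Il6 stood at 49.96, 42.5 and 31.8 CPM against 12.6, 18.2 and 9.60 CPM. Csf3 stood at 5.54, 24.4 and 6.14 CPM against 1.24, 2.83 and 2.23 CPM, so that the no-alopecia CD45-negative library was the 1 high value of the 6. The monocyte attractants were split between the sorts. Ccl2 was at 60.9, 48.1 and 33.5 CPM in CD45-negative and 54.2, 48.4 and 43.9 CPM in CD45-positive libraries, and Ccl7 at 58.1, 48.7 and 39.8 against 90.8, 98.0 and 79.5 CPM. Cxcl5 was all but absent, with 5 UMIs over the 6 libraries.

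**Figure D1:**
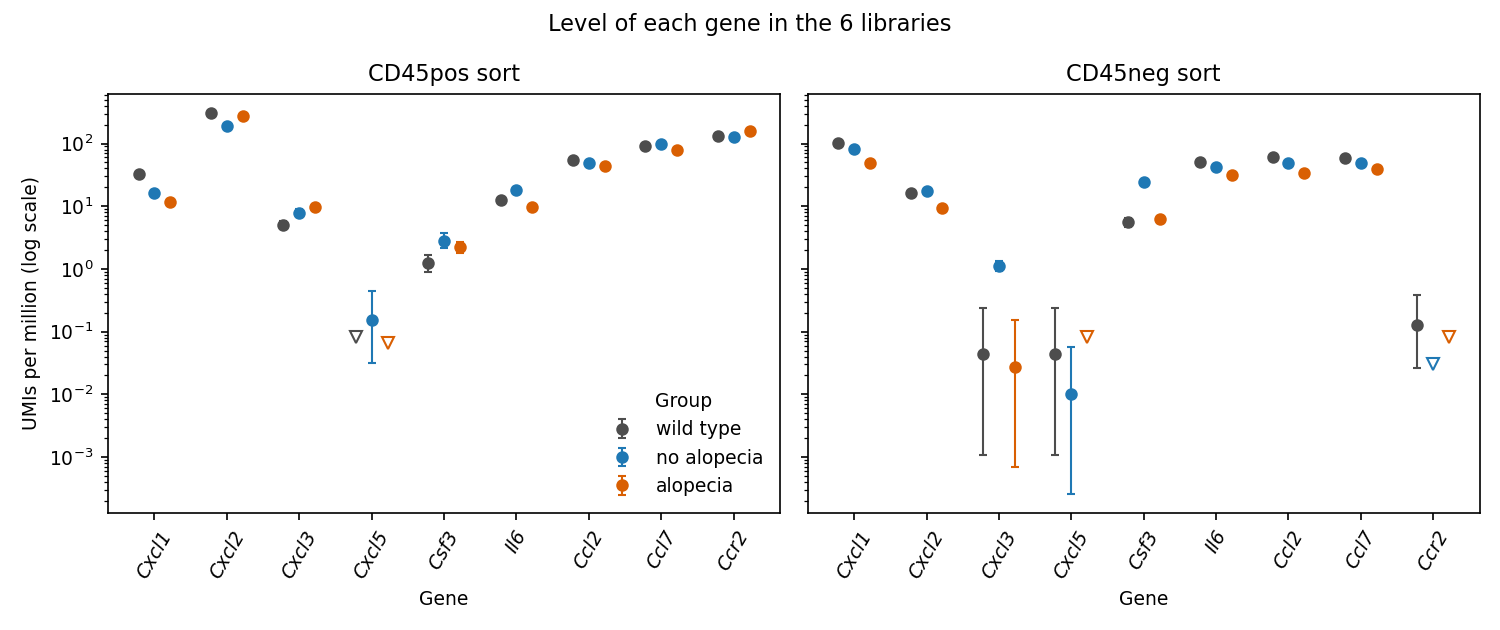
Level of each of the 9 genes in each library, in CPM on a log axis, with wild type, no alopecia and alopecia side by side for each sort. Bars are exact 95% Poisson intervals (counting error only), and open triangles mark libraries with 0 UMIs at the limit of 3 counts. Csf3 is high in the no-alopecia CD45-negative library alone, and Ccr2 is near 0 in all 3 CD45-negative libraries.

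Between the mice with and without alopecia, the CD45-negative libraries differed most in the neutrophil attractants, which were lower with alopecia. Of the 7 members with enough UMIs, 4 were lower and 0 higher, where 5.54% of all genes were lower and 23.9% higher. Cxcl1 was at 0.592 times its no-alopecia level (0.562 to 0.623), Cxcl2 at 0.542 times (0.481 to 0.609) and Csf3 at 0.252 times (0.218 to 0.289). Cxcl3 was the fourth, but 102 of its 109 UMIs in the no-alopecia library came from 1 cell. Il6, Ccl2 and Ccl7 were at 0.748, 0.696 and 0.817 times, inside the 1.5-fold limit. The median over the members was -0.76 on the log2 scale, against 0.21 over all genes. With each cell class weighted alike, an alternative chosen after seeing the data, the ratios were 0.450 for Cxcl1, 0.406 for Cxcl2, 0.302 for Csf3, 0.672 for Il6, 0.496 for Ccl2 and 0.601 for Ccl7, so that the last pair also passed the limit. Without the 10 richest cells of each library Cxcl2 was at 0.267, Csf3 at 0.0359, Il6 at 0.592 and Ccl2 at 0.599 times.

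Among CD45-negative cells of no alopecia against wild type, 2 of 7 members were higher (Csf3 and the single-cell Cxcl3) and 0 lower, where 6.1% of all genes were higher and 25.3% lower. Csf3 was at 4.40 times the wild-type level (3.69 to 5.30), or 39.4 times without the 10 richest cells of each library. Cxcl2 was at 1.09 times but at 1.61 with classes weighted alike and 2.05 without the richest cells, both past the limit. Alopecia against wild type gave 0 of 6 members higher and 4 lower, where 4.88% and 5.55% of all genes were. The 4 were Cxcl1 at 0.479, Cxcl2 at 0.593, Il6 at 0.637 and Ccl2 at 0.550 times wild type, while Csf3 was at 1.11 times. The median of the members was -0.23 against -0.22 over all genes in the former comparison and -0.70 against -0.01 in the latter. A few cells carry much of some sums: the 10 richest cells held 93.0%, 36.8% and 91.0% of the Csf3 UMIs in wild type, no alopecia and alopecia, and 37.8%, 20.1% and 38.9% of those of Cxcl1.

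Among CD45-positive cells the members differed in several directions. With against without alopecia, 0 of 8 members were higher and 1 lower, where 10.3% and 7.47% of all genes were. The lower one was Il6, at 0.526 times (0.456 to 0.607), and it came to 0.812 times with classes weighted alike. Cxcl2 was at 1.41 times (1.36 to 1.47), short of the limit, and at 1.74 times without the 10 richest cells of each library. No alopecia against wild type gave 2 of 8 higher (Cxcl3 and Csf3) and 2 lower (Cxcl1 at 0.502 and Cxcl2 at 0.632 times), where 9.78% and 7.91% of all genes were. Alopecia against wild type gave 2 higher (Cxcl3 and Csf3) and 1 lower (Cxcl1 at 0.362 times), beside 10.4% and 5.64%. The members' medians were -0.22, 0.03 and -0.18 on the log2 scale against 0.08, -0.02 and 0.07 over all genes. Csf3 had only 45 to 101 UMIs per library here, and its ratio of no alopecia to wild type was 2.27 over all cells but 0.647 with classes weighted alike.

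The sources of each gene were read from UMIs summed over the 3 libraries of a sort, in classes of at least 50 cells (the map of sources). Stroma carried most of the CD45-negative RNA of all 6 members expressed there. In no alopecia, stroma was 31.8% of CD45-negative cells and held 76.4% of the Cxcl1, 94.1% of the Cxcl2, 99.3% of the Csf3, 89.1% of the Il6, 85.8% of the Ccl2 and 94.7% of the Ccl7 UMIs. Keratinocytes were 60.4% of those cells and held 23.3% of the Cxcl1 UMIs and 13.99% of the Ccl2 UMIs, but 0.674% of those of Csf3. In bulk terms such a share cannot tell fewer cells from less RNA per cell, so levels within classes follow.

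**Figure D2:**
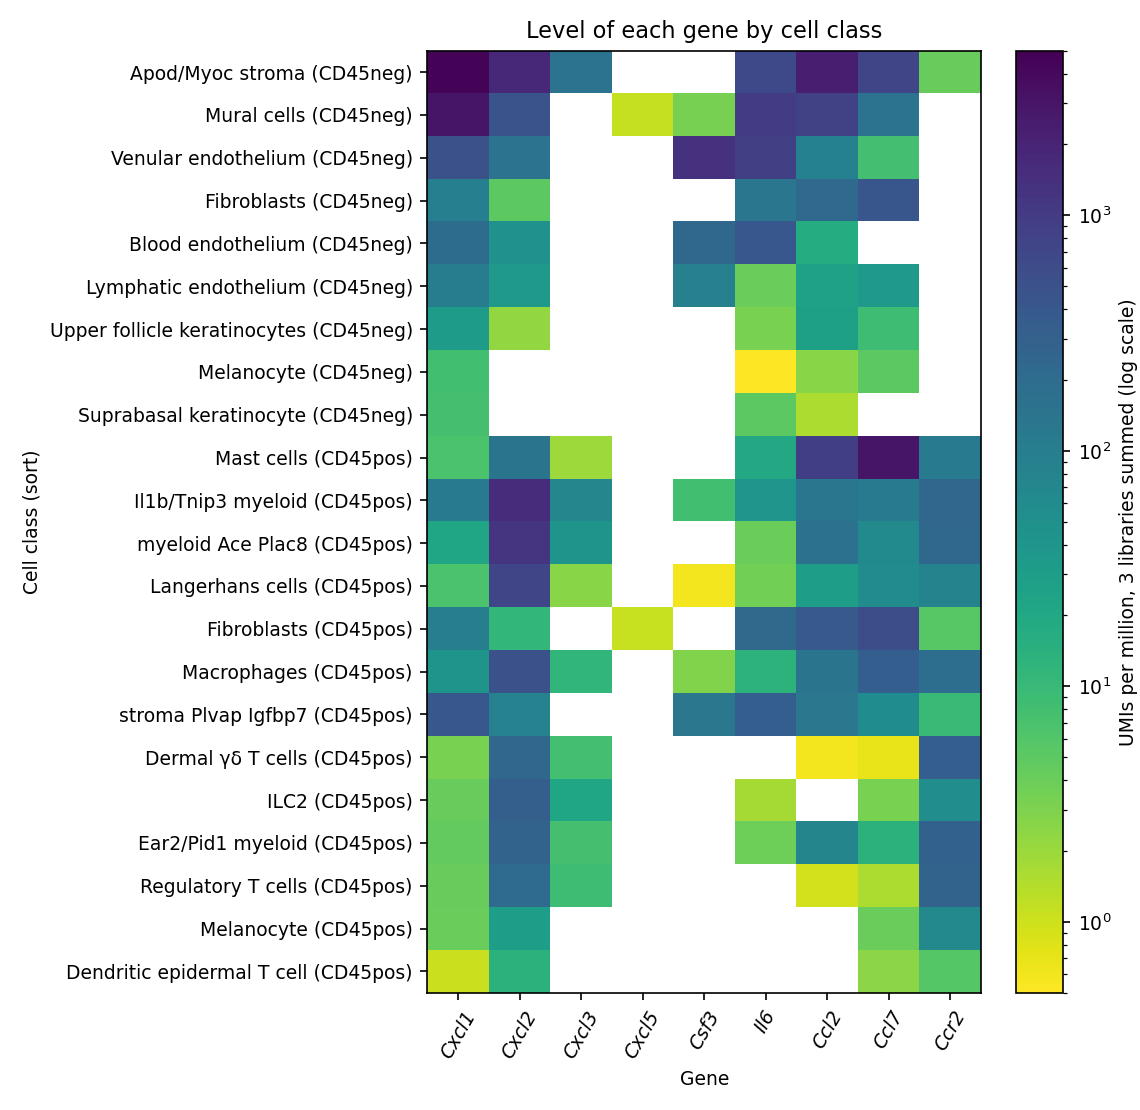
Level of each gene by cell class, as CPM of the class summed over the 3 libraries of its sort, on a log colour scale; white is below 0.5 CPM. Cxcl1 is highest in the class led by Apod and Myoc and in mural cells, Il6 in mural cells and venular endothelium, Csf3 in venular endothelium, Ccl7 in mast cells and Ccr2 in lymphoid and myeloid classes; the Cxcl3 of the class led by Apod and Myoc rests on 1 cell, with 102 of its 107 UMIs.

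Cxcl1 was a gene of the vessel wall and of a small stromal class. That class was led by Apod and Myoc and stayed unnamed: it held all 7 fibroblast markers, summing to 28223 CPM, beside 309 CPM of mural markers. Its 269 cells had 4551 CPM of Cxcl1 and 26.8% of the CD45-negative Cxcl1 UMIs. Mural cells, the pericytes and smooth muscle around vessels, had 2998 CPM in 247 cells and 22.1% of the UMIs. Venular endothelium followed with 515 CPM and blood endothelium with 190 CPM. After thinning each cell to 1000 UMIs, 50.2% of cells of the class led by Apod and Myoc and 31.5% of mural cells had a Cxcl1 UMI, against 0.320% of melanocytes, which should lack it (median depths 2282, 3163 and 2072 UMIs). Among keratinocytes the inner root sheath had most, 81.3 CPM. Among leukocytes the class led by Il1b and Tnip3, a myeloid class without a clear type, had 110 CPM and 23.1% of the CD45-positive UMIs.

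Cxcl2 had the broadest range among leukocytes. The class led by Il1b and Tnip3 had 1532 CPM and 24.3% of the CD45-positive UMIs. A myeloid class led by Ace and Plac8, of 96 cells, had 1204 CPM (2.26%). Langerhans cells had 736 CPM (18.1%), macrophages 507 CPM (17.7%) and a myeloid class led by Cd209a and Wfdc17 312 CPM (8.44%). Group 2 innate lymphoid cells had 310 CPM. After thinning, 36.9% of the class led by Il1b and Tnip3 and 27.4% of that led by Ace and Plac8 had a Cxcl2 UMI. So did 25.03% of Langerhans cells and 19.9% of macrophages, against 1.46% of dendritic epidermal T cells (median depth 3468.5 UMIs). In the other sort the class led by Apod and Myoc had 1735 CPM and 51.4% of the UMIs. Cxcl3 followed Cxcl2 at a far lower level, with 69.3 CPM and 38.7% of its CD45-positive UMIs in the class led by Il1b and Tnip3. The 5 Cxcl5 UMIs lay in fibroblasts (2), macrophages, mural cells and upper follicle keratinocytes (1 each).

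Csf3 was an endothelial gene. Venular endothelium, the vessel segment through which leukocytes leave the blood, had 1340 CPM and 63.7% of the CD45-negative UMIs from 220 cells. Blood endothelium had 227 CPM (28.6%) and lymphatic endothelium 91.0 CPM (6.86%). An unnamed stromal class led by Plvap and Igfbp7 held 56.7% of the few CD45-positive Csf3 UMIs. Il6 was spread over the vessel wall and fibroblasts, with 960 CPM in mural cells, 887 in venular endothelium, 648 in the class led by Apod and Myoc and 415 in blood endothelium. Fibroblasts had 135 CPM but, with 3851 cells, 30.7% of the CD45-negative UMIs.

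Ccl2 and Ccl7 came largely from fibroblasts, mast cells and macrophages, with Ccl2 also in other stroma. By level Ccl2 was highest in the class led by Apod and Myoc, at 2330 CPM with 22.9% of the CD45-negative UMIs, and mural cells had 809 CPM and 9.95%. Ccl7 stood at 719 CPM in the former (6.87%). Mast cells had 900 CPM of Ccl2 and 2937 CPM of Ccl7, which made 18.8% and 34.1% of the CD45-positive UMIs from 528 cells of low depth (median 1149.5 UMIs). Macrophages had 147 CPM of Ccl2 and 325 CPM of Ccl7 and held 28.5% and 35.1%. CD45-negative fibroblasts had 217 CPM of Ccl2 and 433 CPM of Ccl7, with 43.7% and 84.5% of the UMIs. Within them 1 cluster of 1659 cells, led by Tnfaip6, Has1 and Ccl7 beside collagens, had 1023 CPM of Ccl7, 537 of Ccl2, 334 of Il6 and 228 of Cxcl1. The other large cluster, of 2136 cells, had 43.2, 5.64, 3.29 and 3.06 CPM. The first cluster was 49.5%, 44.5% and 35.8% of fibroblasts in wild type, no alopecia and alopecia.

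Cxcl1 within its sources was mostly lower with alopecia than without it (the plots of levels by class). Of 16 CD45-negative classes with at least 30 cells in both libraries and 20 UMIs over the pair, 12 were lower and 1 higher, the glial cells at 83.7 and 307 CPM on 32 and 40 UMIs. In mural cells it was at 3092 CPM in wild type (32 cells), 3914 in no alopecia (175 cells) and 412 in alopecia (40 cells), a ratio of 0.105 (0.0834 to 0.131) between the last and the second. In the class led by Apod and Myoc it was at 3419, 6626 and 2341 CPM in 51, 146 and 72 cells, a ratio of 0.353 (0.321 to 0.388). These and other classes of 30 to 99 cells in the smaller library were an alternative added after seeing the data. Single cells matter at this size: 1 wild-type mural cell held 191 of the 472 Cxcl1 UMIs. Blood endothelium, with 199, 543 and 259 cells, was at 222, 233 and 85.5 CPM, a ratio of 0.367 (0.285 to 0.468), and venular endothelium at 724, 598 and 176 CPM, a ratio of 0.294 (0.215 to 0.393). In blood endothelium wild type was thus near no alopecia. Venular wild type rests on 17 cells. Fibroblasts had 163, 72.1 and 82.2 CPM, and both deletion libraries lay below wild type.

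In upper follicle keratinocytes, which line the opening of the hair follicle, Cxcl1 was at 15.1, 46.4 and 10.1 CPM. No alopecia was 3.08 times wild type (2.41 to 3.998) and alopecia was 0.218 times no alopecia (0.164 to 0.283). After thinning, 1.24%, 1.92% and 0.368% of these cells had a UMI. Nearly all of it lay in 1 of the 3 clusters of that class, which is led by Krt79, Defb6 and the immediate early genes Atf3 and Jun, and had 33.3, 77.7 and 31.5 CPM in the 3 groups. That cluster made 36.1%, 46.9% and 23.6% of the class, and a second cluster, at 0.855 CPM, was the largest in alopecia with 41.5%. The inner root sheath had 87.0, 90.4 and 68.7 CPM, without a difference past 1.5-fold.

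The interfollicular, suprabasal and bulge keratinocytes held little Cxcl1, and the no-alopecia library was the highest of the 3 in each of these classes. In cycling cells wild type was highest, at 37.7, 25.6 and 9.62 CPM, from 23 wild-type cells. The interfollicular basal layer was at 4.11, 13.98 and 3.34 CPM in 164, 2765 and 398 cells, so that alopecia was 0.239 times no alopecia (0.129 to 0.405) and no alopecia 3.40 times wild type (1.64 to 8.52), on 7, 399 and 14 UMIs. After thinning, 0.613%, 0.983% and 0.253% of those cells had a UMI, beside the 0.320% of melanocytes. The bulge and outer root sheath were at 5.93, 20.5 and 7.15 CPM and suprabasal cells at 4.91, 8.34 and 4.93 CPM. In the bulge the ratio of no alopecia to wild type was 3.45, or 6.29 without the richest cell, and in wild type 10 of the 11 suprabasal UMIs lay in 1 cell. The basal cells also differed in make-up: a cluster led by Thbs1 and Serpinb2 was 40.9%, 52.9% and 34.7% of them and had 8.09, 17.8 and 7.48 CPM.

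**Figure D3:**
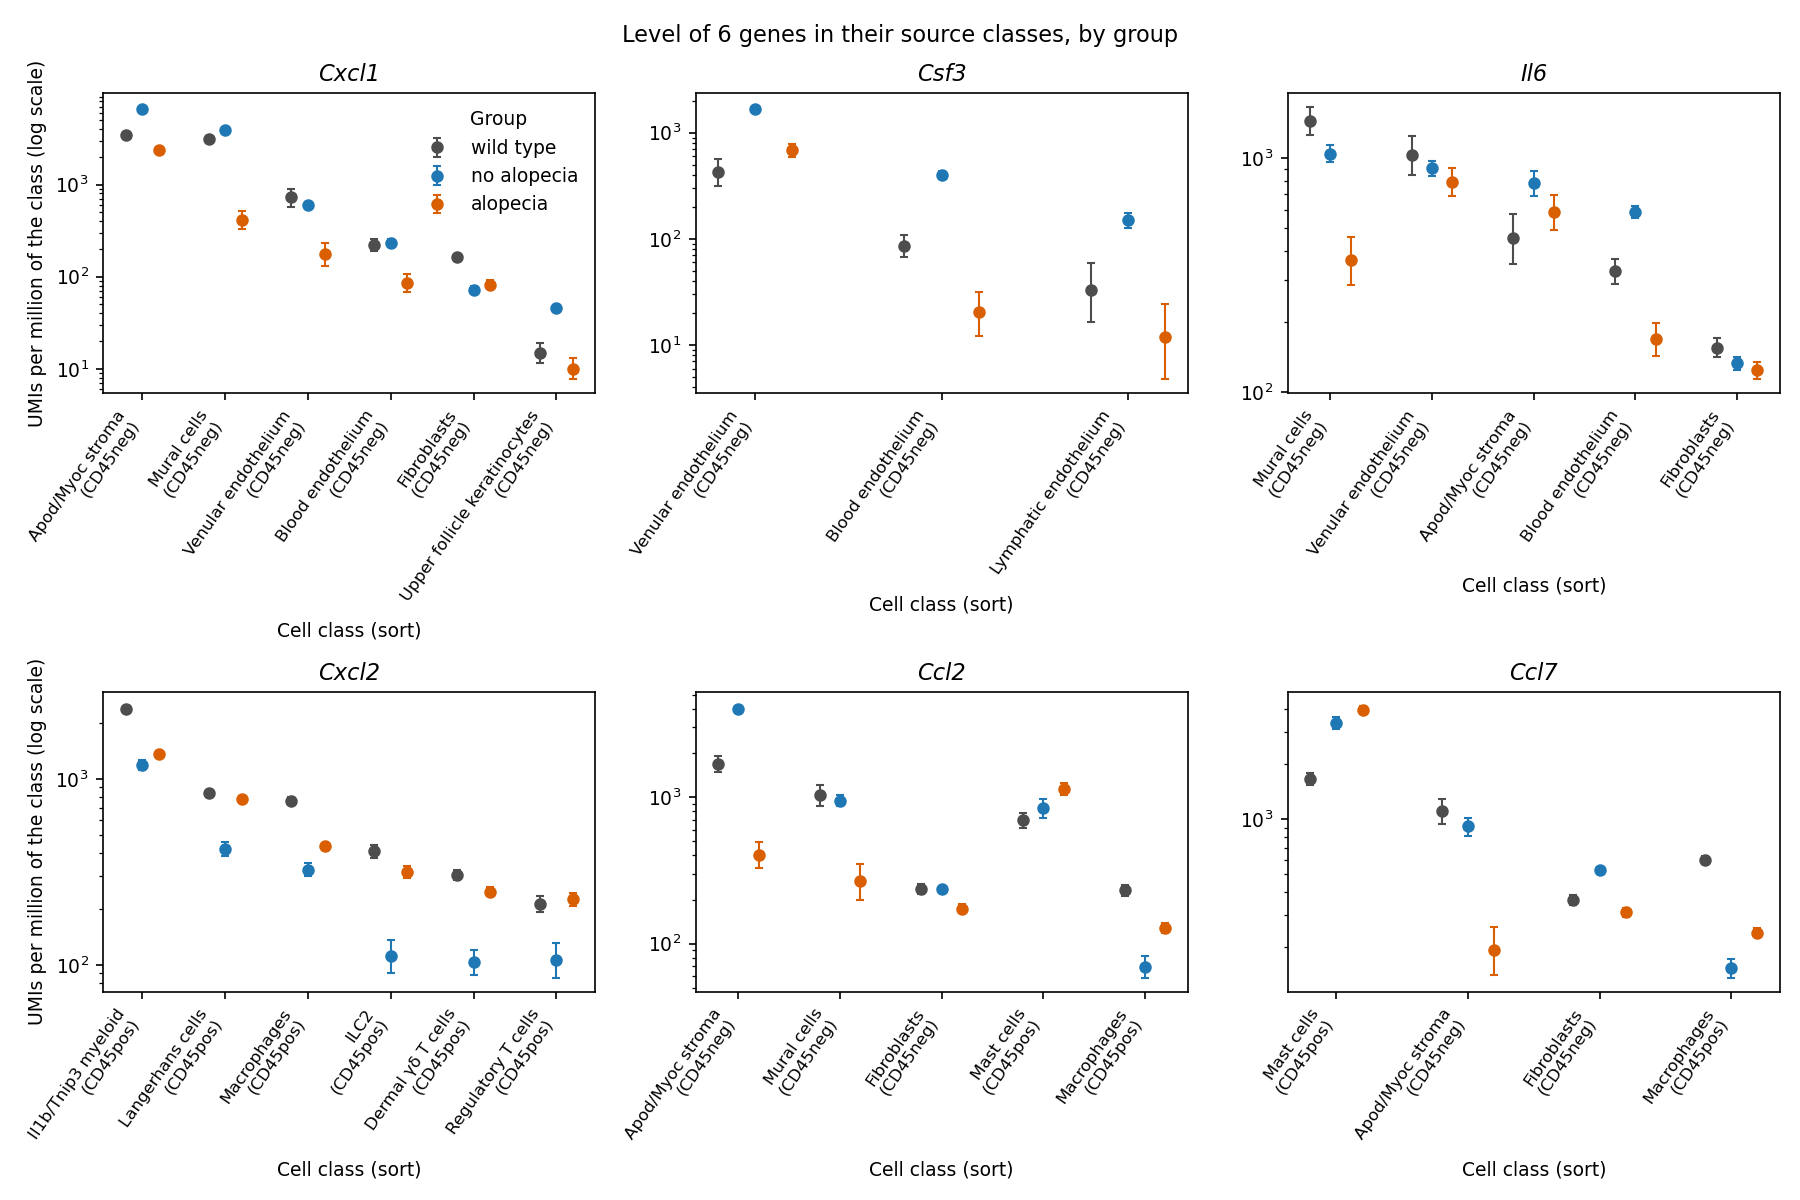
Level of Cxcl1, Csf3, Il6, Cxcl2, Ccl2 and Ccl7 in their main source classes, in CPM on a log axis, by group. Bars are exact 95% Poisson intervals. In mural cells and blood endothelium the alopecia points of Cxcl1 and Il6 lie below both other groups, the no-alopecia points of Cxcl2 are lowest in the 6 leukocyte classes drawn, and the Ccl7 points of mast cells are lowest in wild type.

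Among leukocytes the no-alopecia library had the lowest Cxcl2 in each class whose levels are given here. Of 15 CD45-positive classes with enough cells and UMIs, Cxcl2 was lower in no alopecia than in wild type in 10 and higher in 2. In the class led by Il1b and Tnip3 (179, 173 and 493 cells) Cxcl1 was at 354, 29.2 and 51.4 CPM. No alopecia was 0.0825 times wild type (0.0544 to 0.121) and alopecia 1.76 times no alopecia (1.17 to 2.73). Cxcl2 there was at 2377, 1189 and 1356 CPM. The same order held for Cxcl2 in Langerhans cells (837, 421 and 779 CPM), macrophages (763, 325 and 433 CPM) and group 2 innate lymphoid cells (408, 111 and 316 CPM). In the last the ratio of alopecia to no alopecia was 2.84 (2.29 to 3.55), and without the 1 richest cell of each library it was 4.53. The group 2 innate lymphoid cells also differed in make-up. Their larger cluster was 84.8%, 88.9% and 78.3% of them in wild type, no alopecia and alopecia and had 312, 116 and 192 CPM of Cxcl2. The smaller one had 986, 65.1 and 852 CPM in 46, 16 and 97 cells. Dermal gamma delta T cells and regulatory T cells had 303, 103 and 246 and 213, 106 and 225 CPM. The gamma delta T cells differed in make-up: a cluster led by Cd163l1 and Trdv4 was 68.7% of them in wild type, 32.4% in no alopecia and 33.4% in alopecia, and in no alopecia a cluster led by Igf1r and Blk was larger, at 40.3%. Within the first cluster Cxcl2 was at 275, 211 and 426 CPM, and within the second at 533, 56.7 and 102 CPM.

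Myeloid classes also held T cell RNA, and the share of such cells differed by group. Cells with at least 3 UMIs of Cd3d, Cd3e, Cd3g and Cd247 were 70.7%, 69.8% and 56.7% of macrophages in wild type, no alopecia and alopecia, and 63.4%, 54.5% and 45.7% of Langerhans cells. They were 17.3%, 10.98% and 11.4% of the class led by Il1b and Tnip3. Without those cells the ratio of alopecia to no alopecia for Cxcl2 in Langerhans cells was 1.22 in place of 1.85, and that of no alopecia to wild type for Cxcl2 in macrophages was 0.619 in place of 0.427. Cxcl1 in the class led by Il1b and Tnip3 kept its ratios, at 1.76 and 0.0883.

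Cxcl3 went another way than Cxcl2 in the class led by Il1b and Tnip3, at 37.5, 92.6 and 71.7 CPM. No alopecia was 2.47 times wild type (1.65 to 3.78), with 35 of 92 UMIs in 1 cell, and 1.92 times without the richest cell. In group 2 innate lymphoid cells it was at 23.3, 8.20 and 27.03 CPM, so that no alopecia was lowest there. In gamma delta T cells 42 of the 57 UMIs of the alopecia library lay in 1 cell, against 3 UMIs in no alopecia and 21 in wild type.

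Csf3 in endothelium was highest in no alopecia. Blood endothelium was at 86.4, 401 and 20.3 CPM, 4.64 times wild type (3.61 to 6.06) in no alopecia, and alopecia was 0.0506 times no alopecia (0.0303 to 0.0796). In wild type 53 of the 67 UMIs lay in 1 cell, and without the richest cell of each library the former ratio was 19.5. Venular endothelium was at 427, 1656 and 685 CPM in 17, 166 and 37 cells, and the ratio of alopecia to no alopecia was 0.414 (0.355 to 0.481), or 0.331 without the richest cell. Lymphatic endothelium had 169 UMIs in no alopecia, 93 of them in 1 cell, and 7 in alopecia, all in 1 cell. The CD45-positive endothelial-like class led by Plvap and Igfbp7 had 10, 38 and 66 Csf3 UMIs in 41, 8 and 113 cells, too few cells for a ratio.

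Il6 was lower with than without alopecia in 6 of 9 CD45-negative classes and higher in 0. The 6 were blood endothelium, mural cells, cycling cells and 3 keratinocyte classes of low level, and fibroblasts and venules were not among them. Blood endothelium was at 329, 587 and 169 CPM, a ratio of 0.288 (0.242 to 0.340). Mural cells were at 1441, 1042 and 367 CPM, a ratio of 0.352 (0.272 to 0.450), and 47 of the 73 alopecia UMIs lay in 1 cell, without which the ratio was 0.140. Venular endothelium was at 1030, 901 and 791 CPM. CD45-negative fibroblasts were at 155, 133 and 124 CPM and the class led by Apod and Myoc at 455, 780 and 585 CPM. In interfollicular basal and suprabasal keratinocytes alopecia had 8 and 4 UMIs against 208 and 115, at 0.262 and 0.175 times the no-alopecia level. The fibroblasts that came through the CD45-positive sort (98, 253 and 148 cells) were at 193, 255 and 140 CPM, where alopecia was 0.547 times no alopecia.

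Ccl2 was lower with than without alopecia in 11 of 16 CD45-negative classes and higher in 1, the glial cells (16 and 26 UMIs). In the class led by Apod and Myoc it was at 1683, 3984 and 406 CPM, a ratio of 0.102 (0.0818 to 0.126) of alopecia to no alopecia. Mural cells were at 1028, 945 and 267 CPM, with 45 of the 53 alopecia UMIs in 1 cell, and the ratio of alopecia to no alopecia was 0.282, or 0.0548 without the richest cell. Venular endothelium had 111 Ccl2 UMIs in no alopecia, 108 of them in 1 cell, and 0 in the other groups. In CD45-negative fibroblasts, its largest store in that sort, it was at 236, 234 and 174 CPM, inside the limit. Mast cells were at 693, 840 and 1139 CPM, 1.35 times in alopecia against no alopecia (1.14 to 1.62). The class led by Ear2 and Pid1 was at 41.1, 13.5 and 104 CPM on 24, 6 and 190 UMIs, and alopecia was 7.70 times no alopecia (3.47 to 21.2), with 99 cells in the smaller library. Macrophages were at 231, 69.9 and 129 CPM, so that wild type was highest, and the ratio of alopecia to no alopecia was 1.84 (1.52 to 2.24) or 1.43 without cells holding T cell RNA.

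Ccl7 in mast cells ran against Ccl7 in macrophages. Mast cells (165, 124 and 239) were at 1671, 3357 and 3996 CPM, and both deletion libraries lay above wild type, by 2.01 times (1.81 to 2.24) in no alopecia. Macrophages (417, 275 and 910) were at 596, 152 and 239 CPM, and no alopecia was 0.255 times wild type (0.224 to 0.290). For alopecia against no alopecia the macrophage ratio was 1.57 (1.38 to 1.79) over all cells but 0.886 without those holding T cell RNA, which turns its direction. CD45-negative fibroblasts were at 361, 527 and 310 CPM, a ratio of 0.588 (0.552 to 0.627), and those of the CD45-positive sort at 433, 719 and 407 CPM. The CD45-negative ones differed in make-up. Their cluster led by Tnfaip6, Has1 and Ccl7 was 49.5%, 44.5% and 35.8% of them. Within it Ccl7 was at 739, 1182 and 933 CPM, with alopecia inside the limit against no alopecia. The other large cluster was at 23.2, 62.3 and 23.8 CPM.

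Ccr2, the receptor, was within 1.5-fold in all 3 comparisons of the CD45-positive libraries. Its main carriers by level were dermal gamma delta T cells (316 CPM; 22.4% of the UMIs), a myeloid class led by Ear2 and Pid1 (284 CPM), regulatory T cells (266 CPM) and the class led by Il1b and Tnip3 (241 CPM). After thinning, 25.3% of gamma delta T cells had a UMI against 0.926% of dendritic epidermal T cells. By group the gamma delta T cells were at 330, 303 and 311 CPM, regulatory T cells at 253, 238 and 285 and macrophages at 159, 192 and 180 CPM. None of these 3 classes is past 1.5-fold in any of the 3 comparisons. Over the classes with enough cells and UMIs, 3 of 15 were higher and 2 lower in alopecia against no alopecia. In the class led by Ear2 and Pid1 it was at 254, 184 and 318 CPM in 102, 99 and 442 cells, 1.73 times no alopecia in alopecia (1.37 to 2.20). The others that were higher were group 2 innate lymphoid cells, at 56.6, 32.8 and 62.8 CPM, and CD8 T cells, at 51.4, 19.4 and 30.6 CPM on 102, 5 and 18 UMIs. The group 2 innate lymphoid cells differed in make-up. Nearly all of their Ccr2 lay in 1 cluster, at 326, 325 and 303 CPM, which was 15.2%, 11.1% and 21.7% of them. The other cluster was at 11.7, 3.86 and 7.33 CPM. Those that were lower were the CD45-positive keratinocytes led by Krt17 and Defb6 (31 and 78 UMIs) and by Krt5 and Col17a1 (21 and 17 UMIs). No single cell held more than 8.54% of the Ccr2 UMIs of the class led by Ear2 and Pid1 in a library.

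Neutrophil and monocyte markers were low. Ly6g, the defining neutrophil marker, was at 0 in all 6 libraries, and the 7 neutrophil markers summed to 43.6, 10.6 and 12.2 CPM in the CD45-positive libraries. S100a8 and S100a9, abundant neutrophil calcium-binding proteins, were at 13.7, 1.95 and 3.24 and at 24.2, 3.55 and 2.07 CPM. Cxcr2, the receptor of the CXC ligands, was at 0.802, 0.719 and 0.177 CPM and Csf3r, that of CSF3, at 3.87, 4.32 and 6.25 CPM. The 6 monocyte markers summed to 192, 148 and 157 CPM but differed in order. Ly6c2, also held by a lymphoid class described under the other observations, was at 88.6, 11.5 and 14.4 CPM. Chil3 was at 8.88, 3.65 and 3.02 CPM, while Fn1, which fibroblasts also make, was at 55.3, 95.05 and 99.7 CPM. Il6ra, a receptor of IL-6, was at 70.6, 67.7 and 92.9 CPM. The cells richest in both lists were a myeloid class led by Ace and Plac8 with 30, 11 and 55 cells. Of the 10 other receptors listed for the members, 9 had enough UMIs in CD45-positive cells of alopecia against no alopecia, and Cxcr2 alone was past the limit, lower, on 8 and 14 UMIs. Over all genes in that comparison, 10.3% were higher and 7.47% lower.

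Counted by class, the stromal and endothelial members mostly lay lower with than without alopecia, and the share of all genes that did so is given beside each (the plot of ratios by class). All 5 members with enough UMIs were lower in blood endothelium (12.5% of all genes) and in mural cells (20.2%). It was 5 of 6 in the class led by Apod and Myoc (17.8%), 4 of 5 in venular endothelium (14.4%), 3 of 5 in lymphatic endothelium (12.9%), 3 of 5 in upper follicle keratinocytes (12%) and 4 of 4 in CD45-positive fibroblasts (8.7%). Some of these calls rest on single cells. In the class led by Apod and Myoc the 5 include Cxcl3, nearly all of it from 1 cell. The venular 4 include Ccl2, with 108 of its 111 UMIs over the 3 libraries in 1 cell. They also include Cxcl2, with 101 of 193 in 1 cell. CD45-negative fibroblasts had 1 of 5, Ccl7 (6.59%), which was inside the limit within its main cluster. CD45-negative glial cells went the other way, with Cxcl1 and Ccl2 higher, 2 of 2, on few UMIs and without a share over all genes. In mural cells Cxcl2 was at 709 CPM in no alopecia and at 0 of 40 cells in alopecia. Over the 3 libraries only 9.72% of mural cells held a Cxcl2 UMI, and 1 cell held 109 of the 419 UMIs. With so few carriers, 40 cells without a UMI give no firm limit to the fold. For no alopecia against wild type, members were higher in 3 of 5 cases in blood endothelium (11.3%) and 3 of 5 in upper follicle keratinocytes (11.3%). In the class led by Apod and Myoc it was 5 of 6 (21.6%), again with Cxcl3. Others differed: 2 of 5 were lower in CD45-negative fibroblasts (9.1%), 2 of 2 in glial cells (19.5%) and 2 of 2 in keratinocytes led by Sostdc1 and Apoe (13.1%), and mural cells had 1 higher (24.8%) and 1 lower (14.5%) of 5. Of 7 CD45-negative stromal classes in that comparison, 4 had more members higher than lower and 2 the reverse. Of 7 CD45-negative keratinocyte classes it was 6 and 1. In the CD45-positive sort 2 of 2 keratinocyte classes had more members lower, and the 1 stromal class had more higher. Such a tally counts any excess, even of 1 member, and has no share over all genes beside it.

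Most leukocyte classes went the other way. For no alopecia against wild type, 0 of 14 classes had more members higher than lower and 10 had more lower, and for alopecia against no alopecia 10 of 13 had more higher and 0 more lower. A class counts here on any excess, and no share over all genes goes with the tally. In the latter comparison the class led by Il1b and Tnip3 counts on 1 of 7 members and CD8 T cells on 1 of 1. The tally was not redone without cells holding T cell RNA. For no alopecia against wild type, 5 of 8 members were lower in macrophages (9.44% of all genes), 5 of 7 in the class led by Il1b and Tnip3 (15.5%) and 4 of 5 in Langerhans cells (11.3%). Those of macrophages were Cxcl1, Cxcl2, Il6, Ccl2 and Ccl7. For alopecia against no alopecia, 3 of 7 members were higher in macrophages (12.5%), but without cells holding T cell RNA Ccl2 (1.43) and Ccl7 (0.886) of these 3 were not. Higher members were 3 of 4 in gamma delta T cells (16.3%) and 3 of 3 in group 2 innate lymphoid cells (16.1%), against 1 of 7 in the class led by Il1b and Tnip3 (17.8%) and 1 of 4 in mast cells (15.4%). The gamma delta count includes Cxcl1, with 22 UMIs against 1. Both comparisons use the no-alopecia library, so the pair of counts is not independent.

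**Figure D4:**
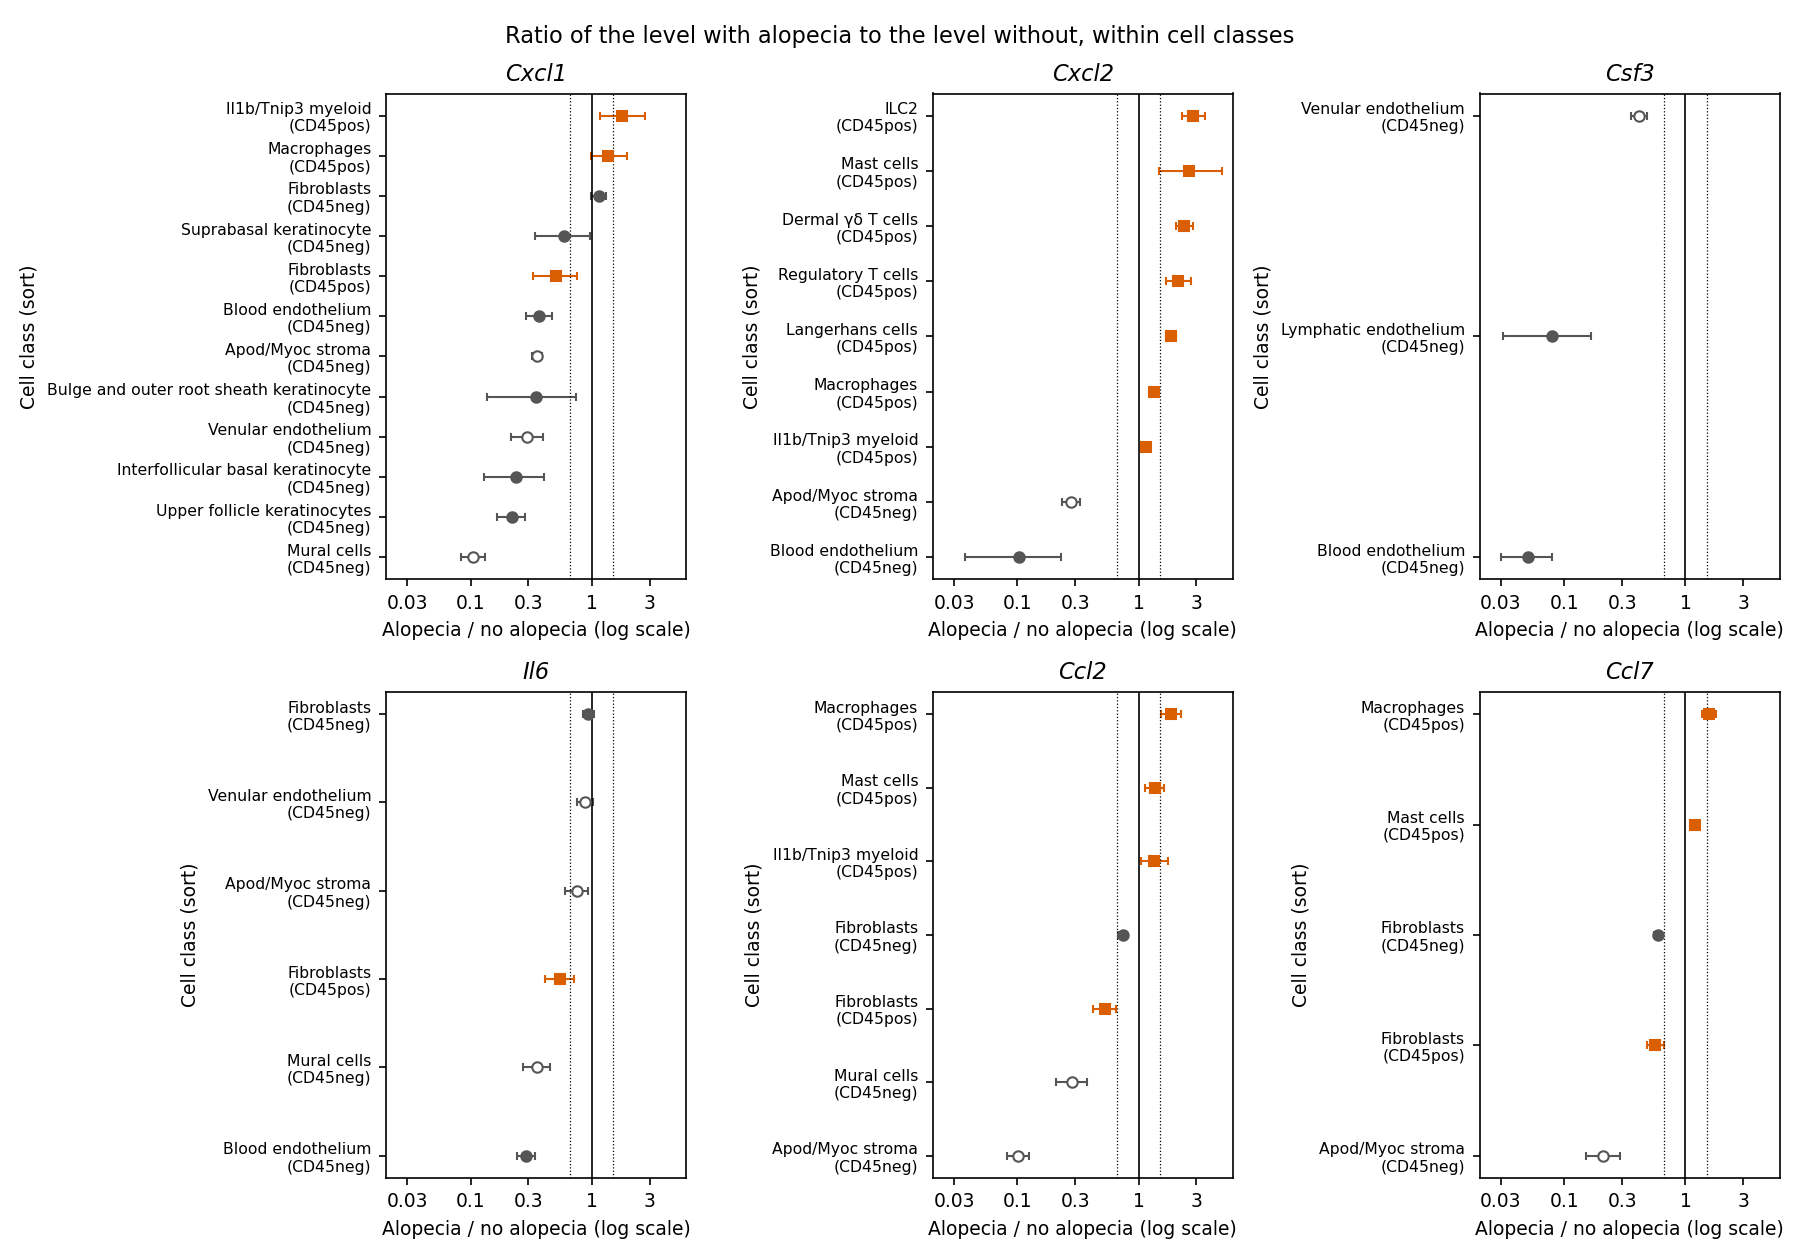
Ratio of alopecia to no alopecia for 6 of the genes in classes with values in the text, on a log axis, with 95% intervals for counting error. Squares are CD45-positive and circles CD45-negative classes, open symbols have 30 to 99 cells in the smaller library, and dotted lines mark 1.5-fold either way. Cxcl1 lies below 1 in mural cells, endothelium and upper follicle keratinocytes and above 1 in the myeloid class led by Il1b and Tnip3.

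Genes that respond to the same signals, and to tissue digestion, were listed beside the members. Of 18 immediate early and dissociation genes, 0 were higher and 14 lower in the CD45-negative alopecia library than in the no-alopecia one, with a median of -0.94 on the log2 scale against 0.21 over all genes, 5.54% of which were lower. Fos was at 1495 against 3047 CPM, and Atf3 and Nr4a1 were at 0.398 and 0.451 times. Of 10 NF-kB and C/EBP factors and their feedback genes, 0 were higher and 7 lower (median -0.95), among them Tnfaip3, a brake on NF-kB, at 0.301 times, and Nfkbiz, a co-activator of these ligands, at 0.483 times. Of 7 factors that act on the decay of such mRNAs 3 were lower, with Zfp36 at 0.415 and Zc3h12a at 0.426 times. No alopecia against wild type gave 6 and 0 of the immediate early and 7 and 0 of the NF-kB list higher and lower. Over all genes there, 6.1% were higher and 25.3% lower. Between alopecia and no alopecia in CD45-positive cells, 10.3% of all genes were higher and 7.47% lower. Of the 18 immediate early genes 0 were past the limit there. By class, 9 of 18 were lower in blood endothelium, 12 in lymphatic endothelium, 15 in upper follicle keratinocytes and 2 in CD45-negative fibroblasts. In mural cells 0 were lower and 1 higher, while 7 of the 10 NF-kB genes were lower there. In the class led by Il1b and Tnip3 7 of 18 immediate early genes were higher, where 17.8% of all genes were. The shares of all genes that were lower in these classes are those given above: 12.5%, 12.9%, 12%, 6.59% and, in mural cells, 20.2%. How far these genes account for the members' levels was not tested.

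The inducing cytokines and other attractants gave mixed values. In CD45-positive cells Il1b was at 0.605 times in alopecia against no alopecia, the only 1 of 8 inducing cytokines past the limit. Over all genes in that comparison, 10.3% were higher and 7.47% lower. Of 14 other attractants and colony-stimulating factors, 5 were higher, among them Ccl6 at 3.49, Ccl9 at 2.10 and Csf2 at 1.55 times, and 5 were lower, among them the eosinophil chemokine Ccl11 at 0.176 and Csf1 at 0.520 times. The stromal share of those libraries, given above, was 8.44% in no alopecia and 3.29% in alopecia, and its part in these values was not tested. In CD45-negative cells Il1a and Il1b were at 0.272 and 0.441 times.

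Some pairs of members shared cells. Of mural cells with a Cxcl1 UMI, 69.4% also had Il6, against 8.05% of the others, at median depths of 3551.5 and 2755 UMIs. Of blood endothelial cells with Csf3, 80.3% had Il6 against 18.0% (4700 and 2905 UMIs), and of venular cells 93.0% against 38.3%. Of fibroblasts with Ccl2, 72.7% had Ccl7 against 22.1% at nearly equal depths of 3627 and 3488 UMIs. Of cells with Cxcl1 in the class led by Il1b and Tnip3, 96.4% had Cxcl2 against 40.2%. In mast cells, where Ccl2 and Ccl7 are both high, the shares were 60.8% and 40.5%. Other pairs showed no such gap: of mast cells with Cxcl2, 41.5% had Ccl2 against 45.2%, and of venular cells with Cxcl1, 1.27% had Ccl2 against 1.42%. Depths differ between the cells compared, and these shares are descriptions.

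Across 47 class sums of both sorts (log2 of CPM plus 1, sums that share libraries and depth), the genes most like each member were named by Pearson r. For Cxcl1 these were Il6 (0.83), Cebpd (0.82) and Adamts4 (0.81), while Cxcl2, its neighbour with the like promoter, had 0.31. Cxcl2 was most like Slc15a3 (0.79), Cd14 (0.74) and Nfkbie (0.74), and Cxcl3 like Nlrp3 (0.73), Cxcl2 (0.73) and Lrrc25 (0.71). Csf3 ran with the endothelial genes Robo4 (0.96), Myct1 and Arhgef15, and Ccr2 with the leukocyte genes Gpr132 (0.97), Snx20 and Cd53. Ccl2 and Ccl7 were among each other's 3 closest genes, beside Abca6 and Stxbp6 for Ccl2 and Ifi207 and Fam102b for Ccl7. Il6 was closest to Phf11d, Cxcl1 and Meox2.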

How the data were processed

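Droplet single-cell RNA libraries (6, with 1 per group and sort) were read as the authors deposited them: whole-number UMI counts per gene and barcode. Per the submitters' processing notes, Cell Ranger 7.1.0 and the mouse build mm10 were used. No other upstream setting is stated in these labels.

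Barcodes were kept from 500 UMIs and 300 genes upwards, if mitochondrial genes gave no more than 10% of the UMIs. Barcodes scoring highest against simulated doublets were removed at 0.4% per 1000 barcodes, 1.34% to 6.70% of a library. Cells were clustered within each sort across its 3 libraries (2000 variable genes without the 9 members, Il2ra, mitochondrial and ribosomal-protein genes, 30 principal components, 15 neighbours, Leiden resolution 1). Clusters were named by listed markers and kept without a type where these did not settle it, so the names are rebuilt ones. UMIs were summed per class and library and scaled to CPM. A class ratio needed at least 100 cells in both libraries, and 30 to 99 cells in an added alternative. For shares of cells with a UMI, cells were thinned to 1000 UMIs.

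All 9 members were named, with list genes at least 1.5-fold apart or the richest in UMIs, the 3 genes most alike in pattern and the classes highest in a member. The members, lists and rules were chosen with earlier results of these data known. Promoters came from a RefSeq table that held 5 of the 9 members. Alternatives covered the cell filter, doublets, scaling (TMM factors from edgeR), averaging, clustering, thresholds, thinning, T cell RNA and the richest cells. Ratios, their counting intervals and the calls past 1.5-fold were tested on simulated counts. Those UMIs were drawn independently, so the check cannot show how intervals or calls hold where single cells carry much of a sum. Python 3.11.15, numpy 2.4.6, scipy 1.17.1, scikit-learn 1.9.0, leidenalg 0.10.2, R 4.3.3 and edgeR 4.0.16 were used.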

Additional observations from a re-analysis of the deposited data

Results flagged for a closer look

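In 7 cases a member lay higher in 1 class and lower in another under the same comparison, by 1.5-fold or more each way. With 1 library per group, none of these differences between classes was tested, and the pairs were picked as the extremes among many classes.

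Cxcl1 in alopecia against no alopecia was at 1.76 times in the myeloid class led by Il1b and Tnip3 and at 0.218 times in upper follicle keratinocytes. In no alopecia against wild type it was at 3.45 times in bulge and outer root sheath keratinocytes, on 114 and 5 UMIs, and at 0.0825 times in the class led by Il1b and Tnip3. Cxcl2 in alopecia against no alopecia was at 2.84 times in group 2 innate lymphoid cells and at 0.103 times in blood endothelium, where the ratio was 0.0631 without the richest cell. The innate lymphoid cells differed in make-up, and in their larger cluster Cxcl2 was at 192 against 116 CPM. Cxcl3 in no alopecia against wild type was at 2.47 times in the class led by Il1b and Tnip3 and at 0.281 times in dermal gamma delta T cells, the latter on 3 and 21 UMIs. Ccl2 in alopecia against no alopecia was at 1.84 times in macrophages (1.43 without cells holding T cell RNA, inside the limit) and at 0.523 times in the fibroblasts of the CD45-positive sort. Ccl7 in the same comparison was at 1.57 and 0.566 times in those classes, and the macrophage value turned below 1 without cells holding T cell RNA. Ccl7 in no alopecia against wild type was at 2.01 times in mast cells and at 0.255 times in macrophages.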

How the results depend on the processing

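No paired analysis was possible because each group had 1 library per sort and no test was run. Counting the members past 1.5-fold, by sort, direction and comparison, gave a count within 1.5 times the one reported in 103 of 120 cases. None of the 17 others arose without the cell filter, without doublet removal, at no more than 5% mitochondrial UMIs, with TMM factors, with mitochondrial and ribosomal-protein genes left out of the scaling or at 50 UMIs over a pair.

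In CD45-positive cells, alopecia against no alopecia gave 2 members higher in place of 0 without the 10 richest cells, and 3 lower in place of 1 with a mean over cells but 0 with classes weighted alike or at 2-fold. No alopecia against wild type gave 1 higher in place of 2 without the richest cells, 0 with classes weighted alike and 1 at 2-fold, and 1, 4 and 0 lower in place of 2 with a mean over cells, classes weighted alike and 2-fold. Alopecia against wild type gave 0, 1, 0 and 0 higher in place of 2 with a mean over cells, without the richest cells, with classes weighted alike and at 2-fold, and 3 lower in place of 1 with classes weighted alike. In CD45-negative cells 2-fold left 2 of 4 members lower in alopecia against no alopecia and 1 of 4 in alopecia against wild type, while alopecia against no alopecia gave 6 lower with classes weighted alike and 5 without the richest cells. Without the richest cells CD45-negative Cxcl3 had too few UMIs for a ratio.

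Ratios past 1.5-fold changed direction in 5 cases. For CD45-positive no alopecia against wild type, Cxcl3 went from 1.57 to 0.977 without the richest cells and Csf3 from 2.27 to 0.647 with classes weighted alike. CD45-positive Csf3 in alopecia against wild type went from 1.79 to 0.882 with a mean over cells and to 0.676 without the richest cells. Macrophage Ccl7 in alopecia against no alopecia went from 1.57 to 0.886 without cells holding T cell RNA. The cause was not tested. Library ratios inside the 1.5-fold limit crossed 1 in 21 more cases, 9 of them with classes weighted alike. Reported class ratios past 1.5-fold in at least 100 cells were each checked under the alternatives. Of these checks, 345 stayed inside the ratio's own counting interval, 39 moved out of it and 1 turned. Of the checks on library ratios, 251 stayed inside, 92 moved out and 4 turned. Thinning to 2000 UMIs moved 51 shares of cells out of their interval and left 16 inside. At Leiden resolution 2, 95.3% of CD45-positive and 99.1% of CD45-negative cells kept their class, and with seed 1 the shares were 92.3% and 99.6%. Cxcl5 had too few UMIs for any ratio.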

Other observations

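Ly6c2, 1 of the 6 monocyte markers, differed widely between wild type and both deletion groups and was chosen after its values were seen. In CD45-positive libraries it was at 88.6, 11.5 and 14.4 CPM in wild type, no alopecia and alopecia. An unnamed lymphoid class led by Gzmc and Klra1 was at 339, 27.9 and 40.6 CPM and the myeloid class led by Ear2 and Pid1 at 480, 47.2 and 15.3 CPM. In CD45-negative libraries the order was turned round, at 0.303 CPM (7 UMIs), 61.3 and 35.2 CPM. Blood endothelium was at 6.45 (5 UMIs), 891 and 522 CPM, and fibroblasts at 0.692 (2 UMIs), 459 and 160 CPM. Ly6c1, a near copy of Ly6c2 with which reads can be confused, was at 5463, 2574 and 4436 CPM in blood endothelium.

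The CD45-positive class led by Plvap and Igfbp7 had 1082, 1347 and 52.4 CPM of Cxcl1 in 41, 8 and 113 cells, and 241 of its 283 wild-type UMIs lay in 1 cell. Among CD45-negative cells S100a8 was at 2.16, 0.936 and 3.18 CPM in wild type, no alopecia and alopecia.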
